A study of Mus musculus with 16 samples.

Results

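The Hox genes encode homeodomain transcription factors and lie in 4 clusters, HoxA, HoxB, HoxC and HoxD. The members described here were all rows of the deposited gene table whose Ensembl identifier maps to a symbol made of Hox, a cluster letter and a paralog number. That rule, which uses no measured value, took 39 of 56941 genes: 11 in HoxA, 10 in HoxB, 9 in HoxC and 9 in HoxD, with paralog numbers 1 to 13. RNA attached to chromatin was sequenced from E14TG2a, a mouse embryonic stem cell line. The cells of each library expressed 1 of 4 histone demethylases from an introduced construct. The protein either lacked its intrinsically disordered region (IDR), a stretch without a stable fold, or was full-length.

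The 8 groups had 2 libraries each. They were IDR-deleted and full-length KDM4A, IDR-deleted and full-length KDM4B, IDR-deleted and full-length KDM6A, and IDR-deleted and full-length KDM6B. KDM4A and KDM4B remove methyl groups from histone H3 lysine 9 and lysine 36, and KDM6A (UTX) and KDM6B (JMJD3) remove them from lysine 27. All groups shared the same medium, with LIF at 1000 U per ml, the MEK inhibitor PD0325901 at 1 µM and the GSK3 inhibitor CHIR99021 at 3 µM, and all kept their endogenous demethylase genes as far as the labels say. All 8 groups carried a construct and none without one is analysed here, so the deletion contrasts set an IDR-deleted protein against its full-length form. The labels name the deletion del-cIDR in the titles and del-IDR elsewhere. The residues removed, the promoter of the constructs and whether a group was 1 clone or a pool are not given in the sources used here.

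Within a cluster, Hox genes are ordered by paralog number, and the low-numbered genes act at the front of the embryo while the high-numbered, posterior genes pattern trunk, tail, limbs and genitalia. In embryonic stem cells the clusters are known as a classic target of Polycomb, which marks them with methylated H3K27 and keeps them mostly silent. KDM6A and KDM6B erase that mark, and loss of it accompanies the activation of Hox genes in order along the cluster when the cells differentiate, for example with retinoic acid.

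Libraries held 32739117 to 54890756 reads on genes, of which 1357 to 3512 (41.4 to 80.1 CPM without TMM) fell on Hox exons. Levels are given as CPM, counts scaled to a common library size by TMM, and log2 fold changes with their standard error are those of edgeR's quasi-likelihood test with Benjamini-Hochberg adjustment over 31057 genes, with a threshold of 0.05 and 2 libraries a group. "Rose" and "fell" below mean past that threshold. Whether replicate libraries stand for separate cultures is not given in the labels, and p-values therefore measure the spread between these libraries, which may be technical. Of the demethylase genes, Kdm6a was counted at 415 to 441 CPM in its own 4 libraries and at 95.7 to 156 CPM in the other 12. For Kdm4a, Kdm4b and Kdm6b the ranges of own and other libraries overlapped, so reads do not show the expression of those constructs. Pluripotency markers were high in every group, with sums over 9 genes between 1909 and 2819 CPM. The 6 libraries of IDR-deleted KDM4A and of both KDM6B groups stood apart from the other 10. ERCC spike-in RNAs took 1.05% to 1.53% of their reads, against 0.578% to 0.806% in the other 10, their TMM factors were 0.892 to 0.944, against 1.020 to 1.075, and 34227 to 35691 genes had a read, against 36488 to 38085. The split follows the groups, so it cannot be told apart from them in IDR-deleted against full-length KDM4A or in full-length KDM6A against full-length KDM6B. The same holds where the KDM4A deletion effect is set against that of KDM4B, and where all 8 groups are compared. The part of the split in the Hox differences was not tested.

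Of the 7 Hox genes that rose when KDM4A lacked its IDR, 4 lay at the posterior end of HoxA, Hoxa9 to Hoxa13, and their upstream DNA is shown for that reason. Each line gives the 250 bases before an annotated start, read 5′ to 3′ on the minus strand of chromosome 6, from RefSeq on GRCm38.p6. Capitals mark CG pairs, the sites of DNA methylation and a feature of the CpG islands that Polycomb binds. Hoxa10 has 2 starts in that table.
Hoxa9, chr6:52227371-52227620: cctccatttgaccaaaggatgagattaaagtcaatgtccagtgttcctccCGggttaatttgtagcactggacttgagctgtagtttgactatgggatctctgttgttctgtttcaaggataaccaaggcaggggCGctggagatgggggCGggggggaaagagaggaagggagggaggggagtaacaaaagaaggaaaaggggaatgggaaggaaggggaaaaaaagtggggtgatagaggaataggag
Hoxa10, upstream start, chr6:52240855-52241104: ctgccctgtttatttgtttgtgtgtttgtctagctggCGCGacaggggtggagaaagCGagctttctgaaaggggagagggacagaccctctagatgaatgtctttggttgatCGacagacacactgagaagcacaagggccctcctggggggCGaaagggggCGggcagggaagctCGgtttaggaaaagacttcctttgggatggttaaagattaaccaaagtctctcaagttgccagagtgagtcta
Hoxa10, downstream start, chr6:52234940-52235189: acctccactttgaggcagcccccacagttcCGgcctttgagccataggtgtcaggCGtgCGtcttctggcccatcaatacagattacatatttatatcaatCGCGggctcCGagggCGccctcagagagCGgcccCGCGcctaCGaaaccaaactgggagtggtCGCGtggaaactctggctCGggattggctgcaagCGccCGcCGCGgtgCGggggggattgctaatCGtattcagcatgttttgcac
Hoxa11, chr6:52245811-52246060: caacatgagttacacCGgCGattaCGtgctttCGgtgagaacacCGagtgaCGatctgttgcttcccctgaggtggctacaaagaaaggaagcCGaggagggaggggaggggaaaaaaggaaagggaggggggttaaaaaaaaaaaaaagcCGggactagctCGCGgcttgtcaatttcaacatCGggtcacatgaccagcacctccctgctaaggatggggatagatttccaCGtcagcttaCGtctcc
Hoxa13, chr6:52260881-52261130: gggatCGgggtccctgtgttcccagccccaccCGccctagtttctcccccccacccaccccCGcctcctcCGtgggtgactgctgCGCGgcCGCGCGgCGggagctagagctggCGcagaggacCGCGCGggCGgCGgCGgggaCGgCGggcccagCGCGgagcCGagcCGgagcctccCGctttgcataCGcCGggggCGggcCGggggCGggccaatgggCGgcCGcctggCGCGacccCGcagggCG

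The windows of these 4 genes differed widely in their CG content. Hoxa9 had 3 CG pairs, the Hoxa10 starts 7 and 20, Hoxa11 13 and Hoxa13 35. The reference table held 24 windows for 22 of the 39 Hox genes, with a median of 12.5 CG pairs and 58.6% GC, against 6 and 52.4% over all 32851 windows of the same length. Genes of the table without an entry include Hoxb9 and Hoxc8 to Hoxc13. Motifs were searched on both strands. TATAAA, the core of a TATA box, stood in 4 of 24 Hox windows (Hoxd13, Hoxd4, Hoxb8 and the downstream start of Hoxa10) and in 12.4% of all windows. AGGTCA, a half-site of nuclear receptors such as those for retinoic acid, stood in 6 (Hoxd10, Hoxd8, Hoxd3, Hoxd4, Hoxb4 and Hoxc4) and in 14.02% of all. TTTATG, a core bound by CDX factors, stood in 5 (Hoxd11, Hoxd3, Hoxd4, Hoxa7 and Hoxb8) and in 10.8% of all. TGATTNAT, a joint site of Hox and PBX proteins, stood in 2 (Hoxd11 and Hoxa2) and in 2.82% of all. A motif match is a description of the letters and was not tested against any change.

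Hox RNA was scarce on chromatin. The median of the 36 Hox genes tested stood at 0.447 CPM per kb of counted length over the 16 libraries, against 2.06 CPM per kb for all genes tested. The most abundant Hox genes per length were posterior genes of HoxB and HoxC. Hoxb9, which helps to pattern the rib cage, led with 5.90 CPM per kb, followed by Hoxc12 at 5.36, the hair follicle gene Hoxc13 at 2.63, Hoxc11 at 1.08, Hoxc10 at 1.01 and Hoxc9 at 0.925 CPM per kb. Hoxb13, known from prostate and tail, stood at 0.819 CPM per kb and Hoxd13, the digit gene that leads HoxD, at 0.696. The first HoxA gene in the order was Hoxa10, a gene of the uterus and lumbar spine, at 0.507 CPM per kb. Library ranges of Hoxb9 (4.01 to 31.4 CPM) were far wider than those of Hoxc13 (4.62 to 8.14 CPM), so the order at the top depended on the group. At the bottom, Hoxb1, a gene of the hindbrain, had 9 reads in all 16 libraries, Hoxb5 had 19 and Hoxb6 had 58, and these 3 were not tested. The other 36 were.

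**Figure D1:**
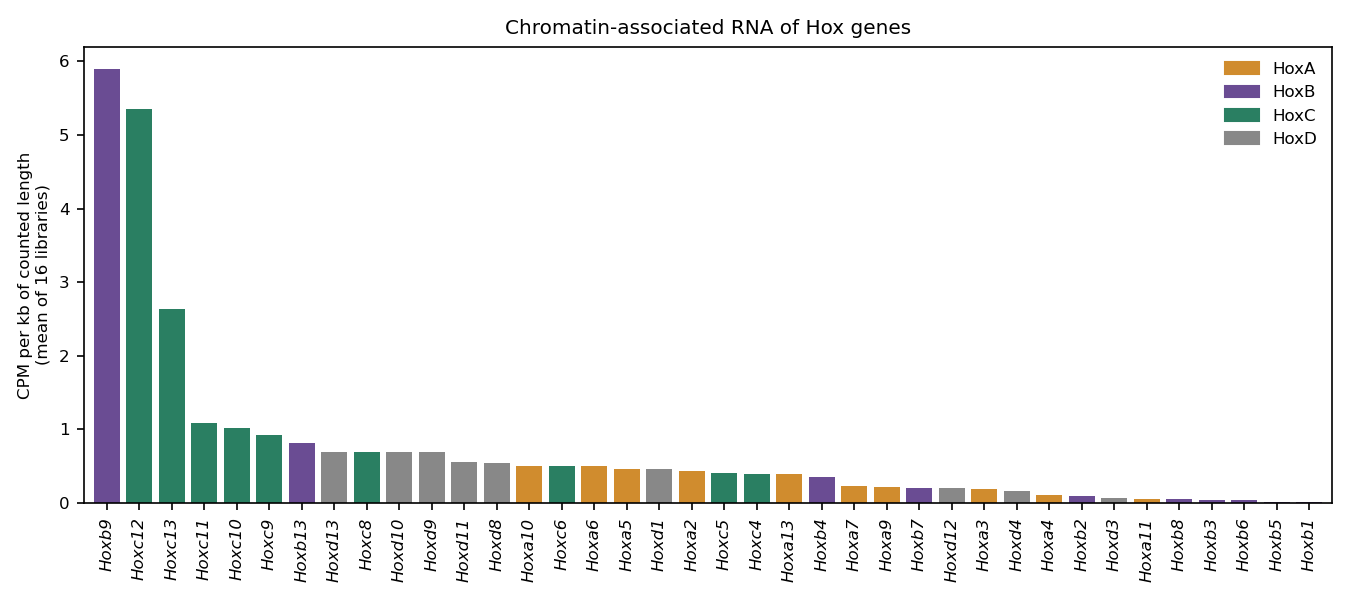
Bars give the mean CPM per kb of counted length over 16 libraries for the Hox genes, without 1 member that is not shown, ordered from high to low and coloured by cluster. Hoxb9 at 5.90, Hoxc12 at 5.36 and Hoxc13 at 2.63 stand above all other members.

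The 4 clusters did not move as 1 block when IDR-deleted KDM4A was set against full-length KDM4A. Summed over its 11 genes, HoxA held 11.6 and 11.95 CPM in IDR-deleted libraries, against 6.71 and 6.39 CPM in full-length libraries. HoxB held 8.94 and 8.597 CPM in IDR-deleted libraries, against 20.9 and 20.98 CPM in full-length ones. HoxC held 15.6 and 15.3 CPM in IDR-deleted libraries, against 29.998 and 27.1 CPM in full-length ones. HoxD held 9.90 and 10.6 CPM in IDR-deleted libraries, against 7.87 and 6.46 CPM in full-length ones. HoxA and HoxD sums were thus higher and HoxB and HoxC sums lower with the deletion on the TMM scale, without overlap between the groups. The lower HoxB sum followed 1 gene, Hoxb9, which alone held 4.78 and 4.01 CPM in IDR-deleted libraries, against 17.1 and 17.2 CPM in full-length ones. Scaled by the ERCC RNAs, the log2 ratio of the HoxD sums was -0.13 in place of 0.52, and those of HoxA, HoxB and HoxC were 0.19, -1.91 and -1.54 in place of 0.85, -1.26 and -0.88. These sums are descriptions without a test, and in bulk RNA fewer expressing cells and less RNA per cell cannot be told apart.

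Of the 36 Hox genes tested in KDM4A, 7 rose and 7 fell, while over all genes 24.6% rose, 25.9% fell and 50.5% did either. The Hox share of 14 in 36 did not exceed that background, and the median Hox fold change was -0.06 beside -0.05 for all genes. The clusters differed in direction: in HoxA 4 rose and 0 fell of 11, in HoxB 1 rose and 1 fell of 7, in HoxC 0 rose and 6 fell of 9, and in HoxD 2 rose and 0 fell of 9. Groups did not overlap for 21 of 36 Hox genes, against 73.2% of all genes. Of the 16 tested genes with paralog numbers 9 to 13, 5 rose and 6 fell, and of the 20 with lower numbers, Hoxb4 and Hoxd1 rose and Hoxc8 fell.

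The posterior HoxA genes, Hoxa9 to Hoxa13, rose in IDR-deleted KDM4A. On GRCm39 they span chromosome 6, minus strand, from 52200080 at the end of Hoxa9 to 52237788 at the start of Hoxa13. Hoxa10 had 2.42 and 3.32 CPM in IDR-deleted libraries, against 1.05 and 0.627 CPM in full-length libraries (log2 fold change 1.78 ± 0.28, adjusted p = 1.47e-06). Hoxa13, which shapes the digits, hindgut and genitalia, had 1.66 and 1.40 CPM in IDR-deleted libraries, against 0.233 and 0.384 CPM in full-length libraries (2.29 ± 0.40, adjusted p = 6.44e-06). Hoxa9, best known from blood progenitors, had 1.98 and 2.23 CPM in IDR-deleted libraries, against 0.722 and 0.728 CPM in full-length libraries (1.53 ± 0.32, adjusted p = 1.09e-04). For each of these genes both IDR-deleted libraries lay above both full-length ones. Hoxa11, a gene of forearm and uterus, rested on 12 and 8 reads in IDR-deleted libraries, against 1 and 2 reads in full-length libraries. Its ratio was 9.69 with an exact 95% counting interval of 2.87 to 50.9, which covers counting error only (adjusted p = 0.0246), and 35.0% of its counted length overlaps an antisense RNA, Hoxa11os. Hoxa11 was past the threshold in none of the 4 fits without 1 library (adjusted p = 0.0541 to 0.148, edgeR). None of Hoxa2 to Hoxa7 passed the threshold, and their fold changes ran between -0.54 (Hoxa2) and 0.90 (Hoxa4).

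The genes that fell in IDR-deleted KDM4A were Hoxb9 (chromosome 11, 96162283 to 96167421, plus strand) and 6 neighbours in HoxC, on the plus strand of chromosome 15 from Hoxc13, which starts at 102829538, to Hoxc8. Hoxb9 had 4.78 and 4.01 CPM in IDR-deleted libraries, against 17.1 and 17.2 CPM in full-length libraries (-1.96 ± 0.11, adjusted p = 8.63e-18). Its share of all Hox reads was 10.4% and 8.62% in IDR-deleted libraries, against 26.1% and 28.3% in full-length ones. Hoxc11, a gene of hindlimb and sacral level, had 0.641 and 0.514 CPM in IDR-deleted libraries, against 3.63 and 2.57 CPM in full-length libraries (-2.41 ± 0.33, adjusted p = 1.35e-07). Hoxc10, a gene of lumbar motor neurons, had 0.728 and 0.480 CPM in IDR-deleted libraries, against 2.96 and 2.77 CPM in full-length libraries (-2.22 ± 0.32, adjusted p = 2.16e-07). Hoxc12 had 4.08 and 3.70 CPM in IDR-deleted libraries, against 7.24 and 6.56 CPM in full-length libraries (-0.82 ± 0.15, adjusted p = 2.13e-05). In all of them the IDR-deleted libraries were the low ones, with no overlap. Hoxc13 (-0.66 ± 0.15), Hoxc8, a gene of brachial motor neurons (-0.95 ± 0.26), and Hoxc9 (-0.70 ± 0.27) fell as well, Hoxc9 in only 1 of the 4 fits without 1 library. Within HoxC the fitted falls of Hoxc10 and Hoxc11 were the largest of the 6, and Hoxc4, Hoxc5 and Hoxc6 stood at -0.28, 0.03 and -0.43 without passing the threshold.

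In HoxD and the front of HoxB, 3 single genes rose in IDR-deleted KDM4A. Hoxd10, a gene of lumbar motor neurons, had 1.34 and 1.20 CPM in IDR-deleted libraries, against 0.606 and 0.526 CPM in full-length libraries (1.17 ± 0.33, adjusted p = 0.00287). Hoxd1, a gene of sensory neurons (1.21 ± 0.45), and Hoxb4, known for expanding blood stem cells (1.04 ± 0.35), rose as well. Hoxd9 (0.70), Hoxd12 (0.87) and Hoxd13 (0.65) had higher means in the deleted group without passing the threshold. Hoxb8 had no reads in either IDR-deleted library and 6 and 4 reads in the full-length libraries, which was not past the threshold (adjusted p = 0.0611). Scaling by the ERCC RNAs in place of TMM moved the median gene by -0.65, and the split of Hox calls to 3 rises and 14 falls: Hoxa9, Hoxa10 and Hoxa13 still rose, while Hoxa11, Hoxb4, Hoxd1 and Hoxd10 did not. Without replicate 2 of full-length KDM4A, 9 Hox genes were called in place of 14, and Hoxa11, Hoxb4, Hoxc8, Hoxc9 and Hoxd1 were not among them.

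**Figure D2:**
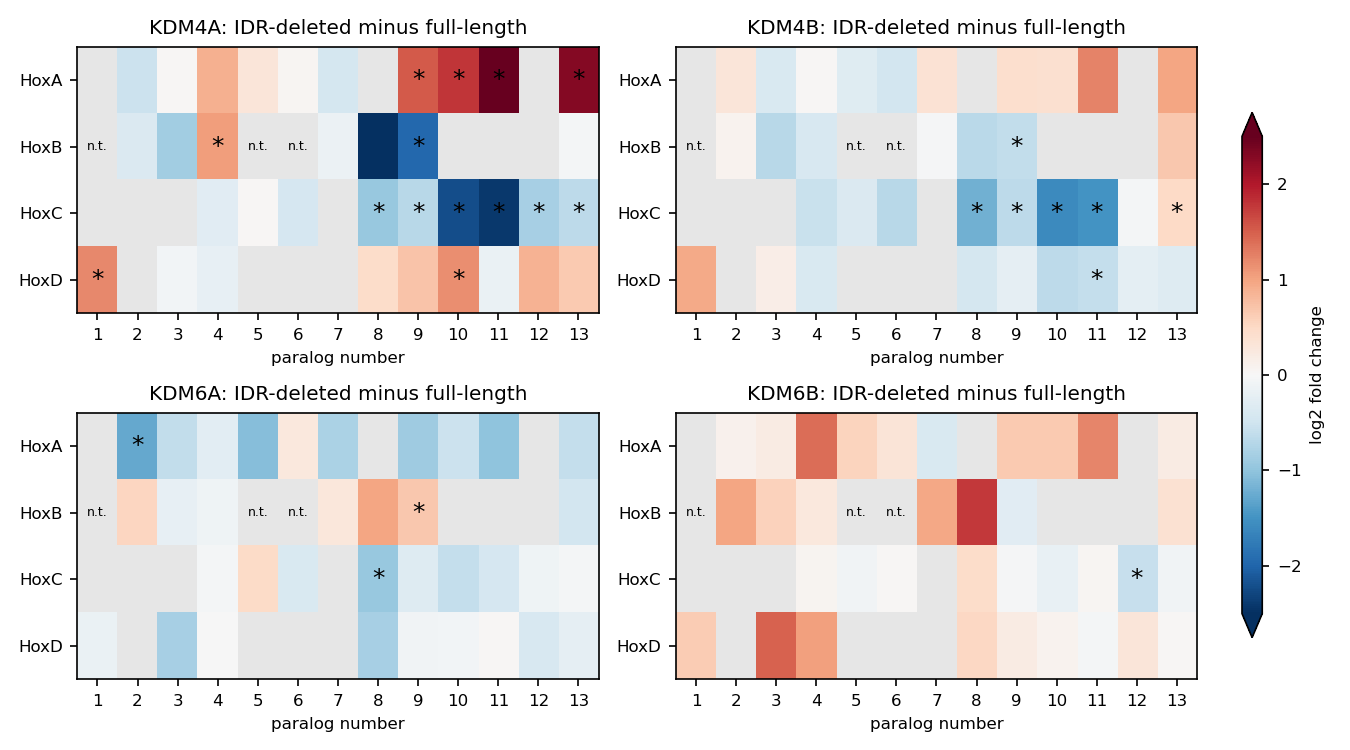
Each panel gives the log2 fold change of IDR-deleted minus full-length for the tested Hox genes, by cluster (rows) and paralog number (columns), with red higher in the IDR-deleted group and blue lower; an asterisk marks adjusted p under 0.05, n.t. a gene not tested and grey no gene or a member that is not shown. In KDM4A the posterior HoxA genes are red and HoxC from Hoxc8 to Hoxc13 is blue; colours end at 2.5 in either direction, and the dark Hoxb8 cell in KDM4A rests on 10 reads in all.

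Markers of other cell types moved in the same contrast, in which 24.6% of all genes rose and 25.9% fell. In IDR-deleted against full-length KDM4A, 8 of 10 primitive endoderm markers rose and 0 fell (sums of 1348 and 1323 CPM in IDR-deleted libraries, against 935 and 870 CPM in full-length ones). Of 8 trophectoderm markers tested 7 rose and 0 fell (82.3 and 84.6 CPM in IDR-deleted libraries, against 35.6 and 34.5 CPM in full-length ones), and of 11 mesendoderm markers 8 rose and 1 fell (56.4 and 56.5 CPM in IDR-deleted libraries, against 34.8 and 35.0 CPM in full-length ones). Of 11 neural markers 6 rose and 1 fell (157 and 149 CPM in IDR-deleted libraries, against 141 and 143 CPM in full-length ones), and of 9 fibroblast markers tested 5 rose and 0 fell (173 and 160 CPM in IDR-deleted libraries, against 108 and 99.4 CPM in full-length ones). The fibroblast genes Dcn and Lum were at 0 reads in IDR-deleted libraries, and Postn, Lum and S100a4 in full-length ones. Of 9 pluripotency markers 3 rose and 5 fell (2467 and 2406 CPM in IDR-deleted libraries, against 2514 and 2404 CPM in full-length ones). The lists share genes, so their counts are not separate. Gata4 and Sox17 are primitive endoderm and mesendoderm markers here, and Hand1 and Eomes mesendoderm and trophectoderm markers. The part of the markers in the Hox changes was not tested.

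In IDR-deleted KDM4B, Hoxb9, 4 HoxC genes and Hoxd11 fell, and Hoxc13 rose. The HoxB sum was 16.7 and 16.8 CPM in IDR-deleted libraries, against 24.8 and 22.6 CPM in full-length libraries. Hoxb9 alone held 12.8 and 13.9 CPM of it in IDR-deleted libraries, against 21.5 and 19.4 CPM in full-length libraries. The HoxC sum was 23.1 and 23.3 CPM in IDR-deleted libraries, against 30.5 and 31.6 CPM in full-length libraries. The HoxD sum was 10.2 and 11.5 CPM in IDR-deleted libraries, against 13.8 and 14.2 CPM in full-length libraries. HoxA held 7.87 and 7.95 CPM in IDR-deleted libraries, against 7.84 and 6.84 CPM in full-length libraries. Of 36 Hox genes 1 rose and 6 fell, while of all genes 18.6% rose, 17.6% fell and 36.2% did either. The groups did not overlap for 24 of 36, against 66.8% of all genes.

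The calls with the smallest adjusted p were again Hoxb9 and genes in the middle of HoxC. Hoxb9 had 12.8 and 13.9 CPM in IDR-deleted KDM4B libraries, against 21.5 and 19.4 CPM in full-length libraries (-0.61 ± 0.10, adjusted p = 3.39e-06). Hoxc10 had 1.14 and 1.57 CPM in IDR-deleted libraries, against 3.86 and 4.34 CPM in full-length libraries (-1.60 ± 0.27, adjusted p = 8.39e-06). Hoxc11 had 1.73 and 1.26 CPM in IDR-deleted libraries, against 3.42 and 5.02 CPM in full-length libraries (-1.49 ± 0.27, adjusted p = 3.45e-05). None of these groups overlapped. Hoxc8 had 1.41 and 1.51 CPM in IDR-deleted libraries, against 3.52 and 3.16 CPM in full-length libraries (-1.19 ± 0.25, adjusted p = 1.49e-04). Hoxc9 (-0.65 ± 0.24) and Hoxd11, a gene of the forearm (-0.60 ± 0.24), fell too, close to the threshold. Without 1 library, Hoxc9 was past it in none of the 4 fits (adjusted p = 0.0625 to 0.191, edgeR) and Hoxd11 in 1. The exception was Hoxc13, which rose to 8.14 and 8.05 CPM in IDR-deleted libraries, against 4.93 and 6.60 CPM in full-length libraries (0.49 ± 0.14, adjusted p = 0.00579).

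The KDM4A and KDM4B contrasts share no library, and 5 genes fell in both: Hoxb9, Hoxc8, Hoxc9, Hoxc10 and Hoxc11. That is 5 of 7 falls in KDM4A and 5 of 6 in KDM4B. Of all genes tested 11.1% fell in both, which is 42.8% of the falls in KDM4A and 63% of those in KDM4B, and no test was run on the overlap of the Hox genes. Hoxc13 was the only gene called in both with opposite direction, falling in IDR-deleted KDM4A and rising in IDR-deleted KDM4B, and its rise was not past the threshold with ERCC scaling or without replicate 1 of full-length KDM4B. The posterior HoxA genes had fold changes of 0.42 ± 0.33 (Hoxa9), 0.39 ± 0.28 (Hoxa10) and 1.00 ± 0.40 (Hoxa13) in KDM4B, and none passed the threshold (adjusted p = 0.36, 0.303 and 0.0511). ERCC scaling moved the median gene by -0.19 in KDM4B and the Hox calls to 0 rises and 8 falls. Primitive endoderm and trophectoderm markers also rose here, 7 of 10 and 6 of 8, with 0 falls. Of all genes 18.6% rose and 17.6% fell, and the part of these markers was not tested.

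The deletion effects of KDM4A and KDM4B were compared directly in the same fit. Of 36 Hox genes, 3 had a more positive effect and 3 a more negative effect in KDM4A, against 15.4% and 15.6% of all genes (31.1% in either direction). More positive in KDM4A were Hoxd10 (difference of the log2 fold changes 1.82 ± 0.43, adjusted p = 9.35e-04), Hoxa10 (1.39 ± 0.40, adjusted p = 0.00657) and Hoxb4 (1.43 ± 0.51, adjusted p = 0.0276). More negative in KDM4A were Hoxb9 (-1.35 ± 0.15, adjusted p = 2.56e-09), Hoxc13 (-1.15 ± 0.21, adjusted p = 2.57e-05) and Hoxc12 (-0.77 ± 0.21, adjusted p = 0.00453). For Hoxc10 and Hoxc11 the difference did not pass the threshold, which does not show that the effects were alike. ERCC scaling moved the median difference by -0.46 and left 1 positive and 6 negative calls, and Hoxa10 and Hoxb4 were no longer past the threshold.

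**Figure D3:**
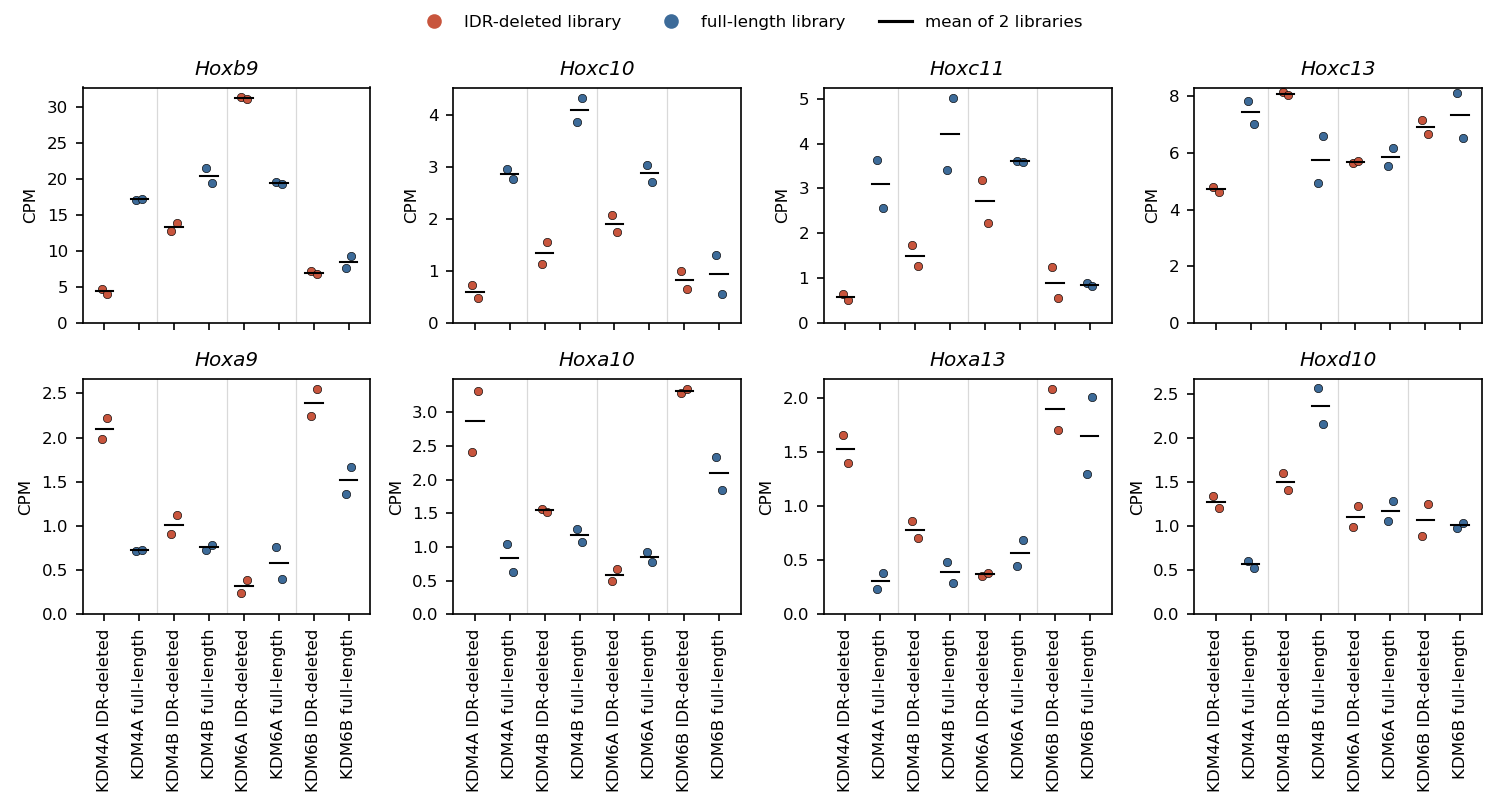
CPM of 8 Hox genes in each of the 16 libraries, with IDR-deleted libraries in red left of their full-length counterparts in blue and a bar for the mean of 2. On this TMM scale Hoxb9 and Hoxc11 are lowest in the IDR-deleted KDM4A and both KDM6B groups, and Hoxa9, Hoxa10 and Hoxa13 are highest in those same groups, whose 6 libraries also had the highest ERCC shares.

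KDM6A and KDM6B act on the histone mark of Polycomb. In IDR-deleted against full-length KDM6A 1 Hox gene rose and 2 fell of 36, while of all genes 8.3% rose, 8.65% fell and 17% did either. The gene that rose was Hoxb9, which had 31.4 and 31.1 CPM in IDR-deleted libraries, against 19.6 and 19.4 CPM in full-length libraries (0.68 ± 0.10, adjusted p = 1.35e-06). It made up 44.3% and 46.1% of all Hox reads in IDR-deleted libraries, against 30.4% and 28.8% in full-length libraries. Hoxc8 fell to 1.18 and 1.75 CPM in IDR-deleted libraries, against 2.89 and 2.80 CPM in full-length libraries (-0.95 ± 0.25, adjusted p = 0.00518). Hoxa2, a gene of the hindbrain and pharyngeal arches, fell to 0.268 and 0.576 CPM in IDR-deleted libraries, against 0.948 and 1.14 CPM in full-length libraries (-1.28 ± 0.42, adjusted p = 0.0292). The groups of all of these were apart, as were those of 20 of 36 Hox genes and 53.6% of all genes.

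The HoxA sum was lower in IDR-deleted KDM6A. The 11 genes summed to 3.69 and 4.01 CPM in IDR-deleted libraries, against 6.66 and 6.60 CPM in full-length libraries, and their median fold change was -0.78 beside 0.00 for all genes. Hoxa2 alone of them passed the threshold, and in only 1 of the 4 fits without 1 library. Hoxa6 had a positive value (0.27 ± 0.62), with 0.358 and 0.269 CPM in IDR-deleted libraries, against 0.384 and 0.114 CPM in full-length libraries. For the abundant posterior members Hoxa9, Hoxa10 and Hoxa13 the values were -0.90 ± 0.39, -0.54 ± 0.32 and -0.59 ± 0.42 (adjusted p = 0.124, 0.303 and 0.406). The HoxB sum was 34.5 and 33.7 CPM in IDR-deleted libraries, against 22.9 and 22.1 CPM in full-length libraries. Hoxb9 alone held 31.4 and 31.1 CPM of it in IDR-deleted libraries, against 19.6 and 19.4 CPM in full-length libraries. The HoxC sum was 25.3 and 22.6 CPM in IDR-deleted libraries, against 27.0 and 29.7 CPM in full-length libraries, and the HoxD sum 7.31 and 7.06 CPM in IDR-deleted libraries, against 7.94 and 8.83 CPM in full-length libraries. ERCC scaling moved the median gene by -0.21 and gave 1 rise and 7 falls, and without replicate 1 of IDR-deleted KDM6A only the rise of Hoxb9 was called.

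In IDR-deleted against full-length KDM6B 0 Hox genes rose and 1 fell of 36, while of all genes 9.89% rose, 10.7% fell and 20.6% did either. By edgeR 6 Hox genes had an unadjusted p under 0.05, and DESeq2 also called 0 rises. The gene that fell was Hoxc12, with 3.85 and 3.30 CPM in IDR-deleted libraries, against 5.16 and 5.42 CPM in full-length libraries (-0.57 ± 0.15, adjusted p = 0.00567). Without replicate 2 of IDR-deleted KDM6B it was not past the threshold, and without replicate 1 of full-length KDM6B 2 genes fell. Hoxa10 came close with 3.28 and 3.35 CPM in IDR-deleted libraries, against 2.34 and 1.85 CPM in full-length libraries (0.66 ± 0.25, adjusted p = 0.0576). The HoxA sum was 13.3 and 13.3 CPM in IDR-deleted libraries, against 9.97 and 10.8 CPM in full-length libraries. The HoxD sum was 14.2 and 13.5 CPM in IDR-deleted libraries, against 11.8 and 10.7 CPM in full-length libraries. With ERCC scaling the log2 ratios of the HoxA and HoxD sums were -0.02 and -0.08 in place of 0.36 and 0.30. The other sums overlapped: HoxB had 12.8 and 12.7 CPM in IDR-deleted libraries, against 12.2 and 13.5 CPM in full-length libraries, and HoxC 20.6 and 17.4 CPM in IDR-deleted libraries, against 21.3 and 20.3 CPM in full-length libraries. Groups were apart for 19 of 36 Hox genes and 58% of all genes. ERCC scaling moved the median gene by -0.38 and gave 0 rises and 3 falls.

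Set against each other, the deletion effects of KDM6A and KDM6B differed for 6 Hox genes, against 21.8% of all genes (11% more positive and 10.7% more negative in KDM6A). Hoxb9 was more positive in KDM6A (0.96 ± 0.14, adjusted p = 2.86e-06). More negative were Hoxc8 (-1.40 ± 0.36, adjusted p = 0.0036), Hoxa9 (-1.56 ± 0.49, adjusted p = 0.0181), Hoxd8 (-1.36 ± 0.43, adjusted p = 0.0202), Hoxa10 (-1.20 ± 0.41, adjusted p = 0.0308) and the lung gene Hoxa5 (-1.62 ± 0.57, adjusted p = 0.0351). All 11 HoxA genes had a negative difference, from -2.23 to -0.05, and 3 of them passed. DESeq2 called 3 Hox genes here in place of 6, and Hoxa5, Hoxa10 and Hoxd8 were not among them. Likewise 3 genes were called without replicate 1 of IDR-deleted KDM6A, without replicate 2 of IDR-deleted KDM6B or without replicate 2 of full-length KDM6B. ERCC scaling moved the median by 0.16 and gave 2 positive and 3 negative calls.

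Full-length proteins of 1 family also differed. Full-length KDM4A and KDM4B libraries differed for 6 Hox genes of 36, with 1 higher and 5 lower in KDM4A, while 13.5% of all genes were higher, 10.8% lower and 24.3% either. The lower ones were mainly posterior HoxD genes. Hoxd10 had 0.606 and 0.526 CPM with full-length KDM4A, against 2.57 and 2.16 CPM with full-length KDM4B (-2.06 ± 0.31, adjusted p = 1.92e-06). Hoxd11 had 1.77 and 1.497 CPM with full-length KDM4A, against 4.67 and 4.603 CPM with full-length KDM4B (-1.51 ± 0.25, adjusted p = 1.40e-05). Hoxd9 had 0.885 and 0.769 CPM with full-length KDM4A, against 1.29 and 2.03 CPM with full-length KDM4B (-1.002 ± 0.30, adjusted p = 0.0105). Hoxd12 had 0.256 and 0.162 CPM with full-length KDM4A, against 0.733 and 0.684 CPM with full-length KDM4B (-1.76 ± 0.53, adjusted p = 0.0115). These 4 are neighbours in the cluster, and Hoxd13 beside them stood at 1.12 and 1.42 CPM with full-length KDM4A, against 2.20 and 1.34 CPM with full-length KDM4B. Hoxc9 was lower (-0.71 ± 0.25), and Hoxb13 was higher at 1.68 and 2.14 CPM with full-length KDM4A, against 1.05 and 1.16 CPM with full-length KDM4B (0.80 ± 0.27, adjusted p = 0.0291). Without 1 library, Hoxc9 was past the threshold in none of the 4 fits and Hoxb13 in 1. The same full-length libraries are the base of the deletion contrasts above. Groups were apart for 17 of 36 Hox genes and 59.4% of all genes. ERCC scaling moved the median by -0.45 and gave 0 higher and 13 lower, and without replicate 2 of full-length KDM4A or replicate 1 of full-length KDM4B 2 and 3 genes were called.

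Of 36 Hox genes 6 were higher and 7 lower with full-length KDM6A than with full-length KDM6B, while 25.7% of all genes were higher, 25% lower and 50.7% either. Higher were Hoxb9 and HoxC genes. Hoxb9 had 19.6 and 19.4 CPM with KDM6A, against 7.67 and 9.28 CPM with KDM6B (1.20 ± 0.10, adjusted p = 7.60e-13). Hoxc11 had 3.61 and 3.60 CPM with KDM6A, against 0.889 and 0.813 CPM with KDM6B (2.08 ± 0.30, adjusted p = 2.60e-07). Hoxc10 had 3.05 and 2.71 CPM with KDM6A, against 1.30 and 0.564 CPM with KDM6B (1.62 ± 0.29, adjusted p = 9.53e-06). Hoxc8 had 2.89 and 2.80 CPM with KDM6A, against 1.02 and 1.40 CPM with KDM6B (1.23 ± 0.25, adjusted p = 8.57e-05). Every KDM6A library was above every KDM6B library in these genes, and Hoxc9 and Hoxc12 were higher as well. Hoxc12 was past the threshold in none of the 4 fits without 1 library (adjusted p = 0.0581 to 0.205, edgeR), and Hoxc9 was not past it without replicate 2 of full-length KDM6A (adjusted p = 0.0671).

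Lower with full-length KDM6A were posterior HoxA genes and some members of HoxB and HoxD. Hoxa10 had 0.925 and 0.771 CPM with KDM6A, against 2.34 and 1.85 CPM with KDM6B (-1.30 ± 0.29, adjusted p = 2.26e-04). Hoxd13 had 0.903 and 1.40 CPM with KDM6A, against 2.84 and 2.33 CPM with KDM6B (-1.18 ± 0.28, adjusted p = 4.78e-04). Hoxa13 had 0.451 and 0.685 CPM with KDM6A, against 1.30 and 2.01 CPM with KDM6B (-1.55 ± 0.37, adjusted p = 4.91e-04). Hoxa9 had 0.767 and 0.400 CPM with KDM6A, against 1.37 and 1.67 CPM with KDM6B (-1.35 ± 0.33, adjusted p = 8.44e-04). Hoxb4, Hoxd1 and Hoxd9 were lower too (-1.14, -1.47 and -1.09). Groups were apart for 21 of 36 Hox genes and 74.4% of all genes. These lower values depended on the scaling: with ERCC scaling, which moved the median by 0.92, 16 Hox genes were higher and 0 lower, and none of the 7 passed. The same scaling kept Hoxb9, Hoxc8, Hoxc9, Hoxc10, Hoxc11 and Hoxc12 higher.

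Markers of other cell types also differed between the full-length KDM6 proteins. Of all genes 25.7% were higher and 25% lower with full-length KDM6A. With full-length KDM6A, 0 of 10 primitive endoderm markers were higher and 9 lower (sums of 820 and 805 CPM with KDM6A, against 1373 and 1408 CPM with KDM6B). Of 8 trophectoderm markers tested 0 were higher and 7 lower (30.4 and 29.5 CPM with KDM6A, against 89.8 and 93.8 CPM with KDM6B), and of 11 mesendoderm markers 0 were higher and 7 lower (34.4 and 31.9 CPM with KDM6A, against 49.6 and 48.3 CPM with KDM6B). Of 11 neural markers tested 2 were higher and 4 lower (112 and 109 CPM with KDM6A, against 148 and 158 CPM with KDM6B), with Dcx at 0 reads with KDM6A. Of 9 fibroblast markers tested 1 was higher and 4 lower (93.01 and 93.3 CPM with KDM6A, against 130.2 and 141 CPM with KDM6B). Dcn, Lum and S100a4 were at 0 reads with KDM6A, and Lum and S100a4 with KDM6B. Of 9 pluripotency markers 1 was higher and 6 lower (2202 and 2133 CPM with KDM6A, against 2706 and 2752 CPM with KDM6B). The lists share genes, as given above. The part of the markers in the Hox differences was not tested. Both full-length KDM6B libraries belong to the 6 with a high ERCC share and both full-length KDM6A libraries do not, so that difference between libraries and the difference between the proteins cannot be told apart.

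Over all 8 groups at once, 23 of 36 Hox genes differed, against 75.8% of all genes. Of those with paralog numbers 9 to 13, 15 of 16 differed, the exception being Hoxd12. Of paralogs 5 to 8, 4 of 9 differed, and of paralogs 1 to 4, 4 of 11. The posterior genes also held more reads, with a median of 1233 reads over the 16 libraries against 585 and 374 for the other classes, and the part of depth in this difference was not tested. In the deletion contrasts 16 Hox genes were called at least once, 9 of them in 1 contrast, 5 in 2 and 2 in 3, and 20 in none. Of all genes 65.5% were called at least once, 26.9% in 1 contrast, 22.2% in 2 and 12.6% in 3, and 34.5% in none, so the Hox genes were not called more often than that background. The 2 called in 3 contrasts were Hoxb9 and Hoxc8.

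**Figure D4:**
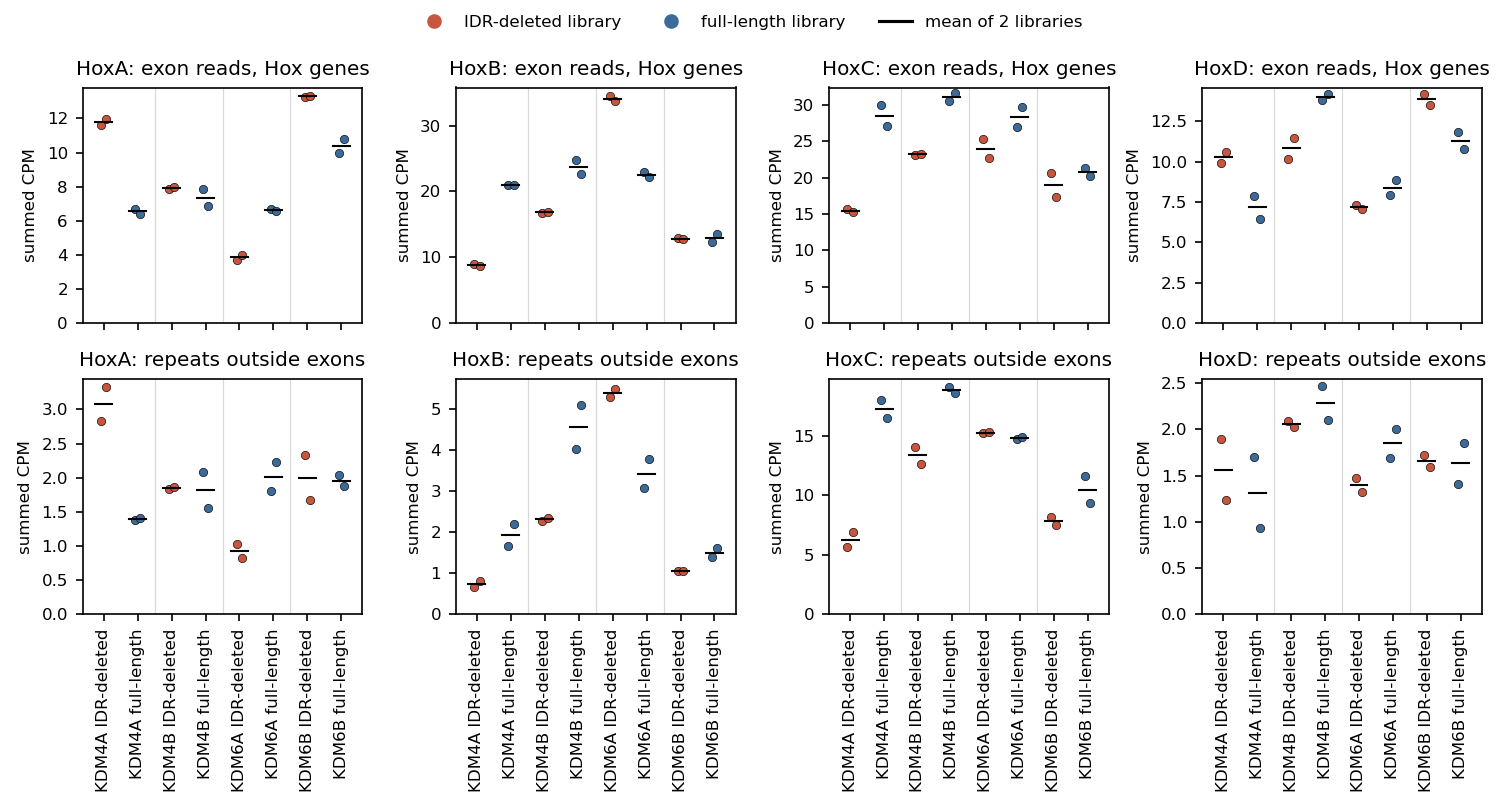
The upper row gives the summed CPM of all Hox genes of a cluster in each library, and the lower row the summed CPM of repeat copies inside the cluster but outside annotated exons, with IDR-deleted libraries in red left of full-length ones in blue and a bar for the mean of 2. On this TMM scale HoxC repeats and HoxC exons are both lowest in IDR-deleted KDM4A, and HoxB repeats and exons are both highest in IDR-deleted KDM6A.

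Reads on repeat copies inside the clusters but outside exons were counted in a separate table. A read that reaches from such a copy into an exon can be counted in both tables, and the size of that overlap was not tested. Mouse Hox clusters are known to be poor in transposable elements, and in the deposited repeat annotation on GRCm39 repeats covered 4.59% of HoxA, 7.86% of HoxB without the distant Hoxb13, 5.68% of HoxC and 7.06% of HoxD, against 30.4%, 31.8%, 39.6% and 30.4% of the 1 Mb on either side. Most copies were simple repeats, 84 of 100 in HoxA, 86 of 124 in HoxB and 91 of 119 in HoxC. Copies clear of exons drew 1263 reads in HoxA, 1840 in HoxB, 9136 in HoxC and 1188 in HoxD over all libraries. They may come from introns, from RNA past a gene's end or from transcripts between genes, which counts on either strand do not tell apart.

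In KDM4A these reads moved in the direction of the exon sums for HoxA, HoxB and HoxC. HoxC repeats held 5.68 and 6.88 CPM in IDR-deleted KDM4A libraries, against 18.003 and 16.5 CPM in full-length libraries. HoxB repeats held 0.670 and 0.822 CPM in IDR-deleted libraries, against 1.65 and 2.21 CPM in full-length libraries. HoxA repeats held 2.82 and 3.32 CPM in IDR-deleted libraries, against 1.37 and 1.42 CPM in full-length libraries. HoxD repeats overlapped between the groups, at 1.89 and 1.23 CPM in IDR-deleted libraries, against 1.70 and 0.931 CPM in full-length libraries. In KDM4B, HoxC repeats held 14.1 and 12.6 CPM in IDR-deleted libraries, against 19.1 and 18.6 CPM in full-length libraries. In KDM6A, HoxB repeats held 5.30 and 5.49 CPM in IDR-deleted libraries, against 3.07 and 3.77 CPM in full-length libraries, and HoxA repeats 1.03 and 0.825 CPM in IDR-deleted libraries, against 1.81 and 2.23 CPM in full-length libraries. HoxC repeats in KDM6A held 15.2 and 15.3 CPM in IDR-deleted libraries, against 14.8 and 14.9 CPM in full-length libraries. They were thus close between the groups on this TMM scale, while the HoxC exon sum was lower with the deletion. In KDM6B, HoxC repeats held 8.18 and 7.49 CPM in IDR-deleted libraries, against 11.6 and 9.35 CPM in full-length libraries. HoxA repeats in KDM6B overlapped, at 2.33 and 1.67 CPM in IDR-deleted libraries, against 2.04 and 1.87 CPM in full-length libraries, while the HoxA exon sums were apart. HoxB repeats in KDM6B held 1.07 and 1.06 CPM in IDR-deleted libraries, against 1.39 and 1.60 CPM in full-length libraries, while the HoxB exon sums overlapped. No test was run on these sums.

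Single copies placed the reads. In HoxC, a low-complexity copy between Hoxc11 and Hoxc10 (chromosome 15, 102870574 to 102870783) had 0.116 and 0.137 CPM in IDR-deleted KDM4A libraries, against 1.61 and 1.68 CPM in full-length libraries. It had the widest gap of the 5 HoxC copies with the most reads. The copy with the most reads, a simple repeat between Hoxc13 and Hoxc12 (102842380 to 102842411), had 1.19 and 1.06 CPM in IDR-deleted libraries, against 2.45 and 1.82 CPM in full-length libraries. The next by reads, also between Hoxc13 and Hoxc12 (102840635 to 102840658), differed little. It had 0.786 and 0.993 CPM in IDR-deleted libraries, against 1.14 and 1.01 CPM in full-length libraries. In HoxB the 5 leading copies lay between Hoxb9 and Hoxb8, and the first of them (chromosome 11, 96168816 to 96168846) held 32.2% of the cluster's repeat reads.

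Noncoding RNAs of the clusters were tested in the same fit. In IDR-deleted KDM4A 2 of 11 tested rose and 3 fell, while of all genes 24.6% rose and 25.9% fell. Hotair, an RNA transcribed between Hoxc12 and Hoxc11 (chromosome 15, 102852494 to 102856165, minus strand) and studied in human cells as a partner of chromatin repressors, had 0.670 and 1.03 CPM in IDR-deleted KDM4A libraries, against 6.10 and 8.30 CPM in full-length libraries (-3.10 ± 0.22, adjusted p = 8.26e-15). The row of Mir196a-1, a microRNA gene between Hoxb13 and Hoxb9 (chromosome 11, 96155990 to 96156091, plus strand) whose microRNA targets Hoxb8, had 1.40 and 1.68 CPM in IDR-deleted libraries, against 4.56 and 4.67 CPM in full-length libraries (-1.59 ± 0.20, adjusted p = 7.40e-09). The row counts reads on the hairpin locus, which need not come from the mature microRNA. Neither row overlaps a Hox exon. The other fall was of Halr1, and the rises were of Hottip next to Hoxa13 and of Hoxaas3, both in HoxA and named after their values were seen. Hottip, known in human cells for sustaining posterior HoxA genes, had 0.408 and 0.0685 CPM in IDR-deleted libraries and no reads in both full-length libraries. It had 87 reads over all 16 libraries, and its rise rests mainly on 1 library. Exons of Hoxa3 and Hoxa7 overlap 30.6% of the counted length of Hoxaas3, and counting ignored the strand.

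In IDR-deleted KDM4B 0 of these RNAs rose and 3 of 11 fell, while of all genes 18.6% rose and 17.6% fell. Halr1 had 20.5 and 21.8 CPM in IDR-deleted libraries, against 57.9 and 65.9 CPM in full-length libraries (-1.55 ± 0.08, adjusted p = 9.37e-19), and Hotair had 3.67 and 3.43 CPM in IDR-deleted libraries, against 8.06 and 7.94 CPM in full-length libraries (-1.17 ± 0.18, adjusted p = 1.05e-06). In IDR-deleted KDM6A 1 rose and 2 fell, against 8.3% and 8.65% of all genes. Mir196a-1 rose to 6.26 and 6.16 CPM in IDR-deleted libraries, against 4.06 and 3.80 CPM in full-length libraries (0.66 ± 0.17, adjusted p = 0.00455), in the contrast in which Hoxb9 rose. In IDR-deleted KDM6B 2 rose and 2 fell, against 9.89% and 10.7% of all genes, with Halr1 higher (0.43 ± 0.08) and Hotair lower (-0.77 ± 0.22).

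**Figure D5:**
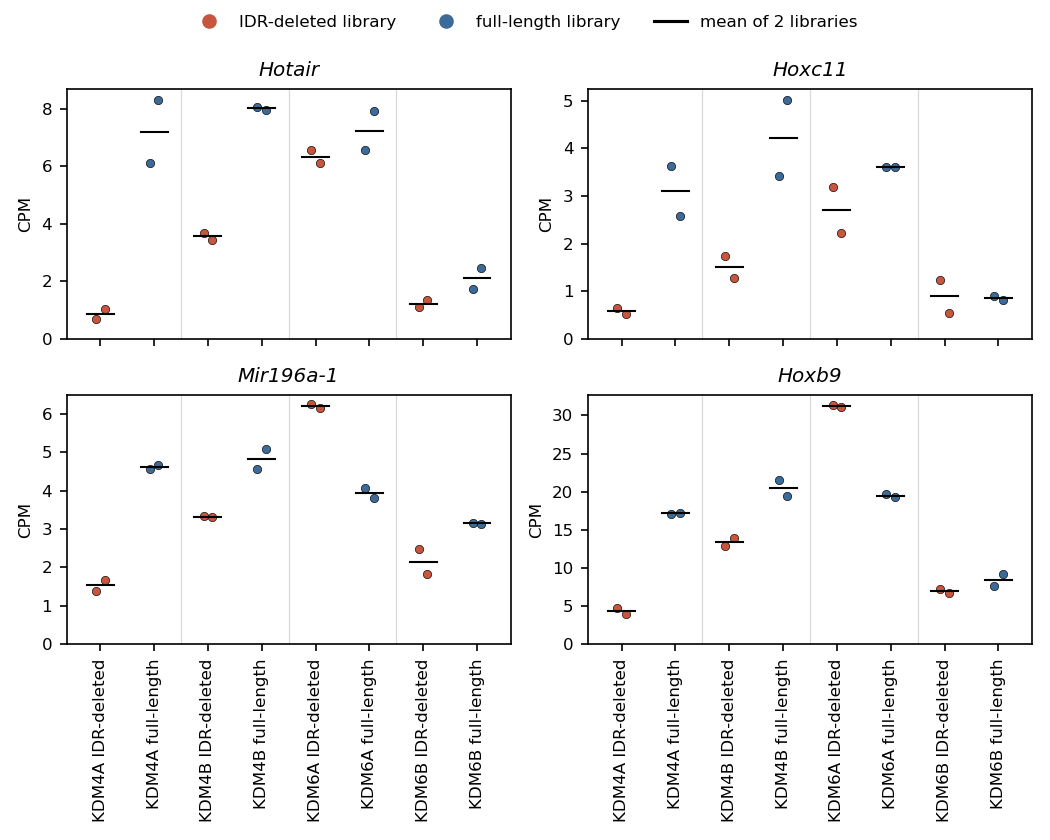
CPM in each library of Hotair and Mir196a-1 and of the nearby coding genes Hoxc11 and Hoxb9, with IDR-deleted libraries in red left of full-length ones in blue and a bar for the mean of 2. Mir196a-1 and Hoxb9 are both lowest in IDR-deleted KDM4A and highest in IDR-deleted KDM6A, and Hotair is at most 2.46 CPM in IDR-deleted KDM4A and both KDM6B groups.

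Genes that act with or upstream of Hox proteins were counted from lists chosen with earlier results of these data known. Of all genes 24.6% rose and 25.9% fell in IDR-deleted KDM4A, and 18.6% and 17.6% in KDM4B. These shares were 8.3% and 8.65% in KDM6A and 9.89% and 10.7% in KDM6B. Of 9 Hox cofactors, the PBX, MEIS and PKNOX proteins that bind DNA with Hox proteins, 2 rose and 2 fell in IDR-deleted KDM4A, 2 and 3 in KDM4B, 1 and 1 in KDM6A and 3 and 3 in KDM6B. Meis2 fell in KDM4A to 37.5 and 40.8 CPM in IDR-deleted libraries, against 68.8 and 68.7 CPM in full-length libraries (-0.81 ± 0.05), and rose in KDM6A to 151 and 147 CPM in IDR-deleted libraries, against 90.8 and 89.8 CPM in full-length libraries (0.72 ± 0.05). Pbx4 rose in KDM4A (0.91 ± 0.08), and Pknox2 rose in KDM4B (1.20 ± 0.08). Of 10 tested upstream regulators of posterior Hox genes, 4 rose and 2 fell in KDM4A, with a median of 0.89 beside -0.05 for all genes. Their summed level overlapped between the groups, at 37.2 and 35.9 CPM in IDR-deleted libraries, against 36.2 and 36.1 CPM in full-length libraries. That list shares T and Tbx6 with the mesendoderm markers and Cdx2 with the trophectoderm markers. The tail bud signals Fgf8 and Wnt3a rose, Fgf8 to 4.11 and 3.49 CPM in IDR-deleted libraries, against 0.489 and 0.749 CPM in full-length libraries (2.60 ± 0.29), and Wnt3a to 2.91 and 2.23 CPM in IDR-deleted libraries, against 0.675 and 0.830 CPM in full-length libraries (1.77 ± 0.29). In KDM4B 2 rose and 0 fell, in KDM6A 1 and 0, and in KDM6B 1 and 0.

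Retinoic acid induces Hox genes from the front of a cluster. Of 18 tested genes of its pathway, 7 rose and 4 fell in IDR-deleted KDM4A, against 24.6% and 25.9% of all genes. In KDM4B 6 rose and 5 fell, against 18.6% and 17.6%. The counts were 2 and 2 in KDM6A, against 8.3% and 8.65%, and 6 and 1 in KDM6B, against 9.89% and 10.7%. Dhrs3, a retinal reductase, had 6.26 and 6.88 CPM in IDR-deleted KDM4A libraries, against 18.6 and 18.1 CPM in full-length libraries (-1.49 ± 0.10, adjusted p = 3.29e-15), and the receptor gene Rxra fell as well (-0.86 ± 0.06). In KDM4B the receptor gene Rarg fell (-0.95 ± 0.07) and Aldh1a3, which makes retinoic acid, rose (2.07 ± 0.22).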

How the data were processed

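The members and the gene lists were chosen with earlier results of these data known. Raw counts per gene were deposited by the authors in 1 table, made with featureCounts 2.0.3 at a minimum mapping quality of 30 and counted without regard to strand, each read of a pair on its own, per the file headers. Antisense or overlapping genes can therefore share reads. Counts on repeat copies were deposited by the authors in the same way. The submitters' processing notes also name HISAT2, SAMtools, Picard, MACS2 and GRCm39, with no role given. Per the labels' protocols, ribosomal RNA was removed with RiboMinus and libraries were made with a stranded SMARTer kit.

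Counts of 16 libraries were fitted together with edgeR 4.0.16 (limma 3.58.1, R 4.3.3) after filterByExpr with a minimum count of 10, TMM scaling over genes without the 92 ERCC entries, and glmQLFit with 8 residual degrees of freedom. DESeq2 1.42.0 was an alternative. Others were median-ratio and ERCC scaling, no filter, a filter of 1 CPM in 2 libraries, a fit of the 4 libraries compared, a replicate block and leaving out each library. Counts of 31057 genes were simulated for the KDM4A comparison with 1 fixed spread for all genes and 100 random genes changed by each size. There 66% of changes of log2 1 and 87% of changes of log2 2 were recovered. Recovery for genes as scarce as the Hox genes was not measured. Named genes were, in each contrast, up to 4 rises and 4 falls of smallest adjusted p with all libraries, each cluster's top gene per kb and 2 called members of each list. Symbols and promoters came from RefSeq tables. Tables and figures used Python 3.11.15, pandas 2.3.3, numpy 2.4.6 and matplotlib 3.10.9. Values of 1 member are not reported here, though it stays in the counts and cluster sums.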

Additional observations from a re-analysis of the deposited data

Results flagged for a closer look

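For 12 results the deletion effect differed between 2 demethylases by the test of that difference in the edgeR fit. All are given in the report with their adjusted p, and they are set here beside both single effects as log2 fold changes.

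Between KDM4A and KDM4B, Hoxd10 differed by 1.82 (1.17 in KDM4A and -0.65 in KDM4B), Hoxb4 by 1.43 (1.04 and -0.39) and Hoxa10 by 1.39 (1.78 and 0.39). Hoxb9 differed by -1.35 (-1.96 in KDM4A and -0.61 in KDM4B), Hoxc13 by -1.15 (-0.66 and 0.49) and Hoxc12 by -0.77 (-0.82 and -0.05).

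Between KDM6A and KDM6B, Hoxb9 differed by 0.96 (0.68 in KDM6A and -0.28 in KDM6B). Hoxa5 differed by -1.62 (-1.07 in KDM6A and 0.55 in KDM6B), Hoxa9 by -1.56 (-0.90 and 0.66), Hoxc8 by -1.40 (-0.95 and 0.45), Hoxd8 by -1.36 (-0.84 and 0.52) and Hoxa10 by -1.20 (-0.54 and 0.66). Of these single effects only those of Hoxb9 and Hoxc8 in KDM6A passed the threshold.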

How the results depend on the processing

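With ERCC scaling 8 Hox genes were called in KDM6A, 3 in KDM6B and 13 between full-length KDM4A and KDM4B. In a comparison added after seeing the data, ERCC scaling reversed the log2 ratio of the HoxA sum in KDM4B (-0.077, against 0.11 with TMM) and in KDM6B (-0.0195), and of the HoxD sum in KDM4A (-0.13) and in KDM6B (-0.0817). In KDM6B 3 were called with the 1 CPM filter, with the fit of 4 libraries and with the replicate block. DESeq2 called 3 in the difference between KDM6A and KDM6B effects. Leaving out 1 library gave 9 to 13 calls in KDM4A, 5 to 7 in KDM4B, 1 to 4 in KDM6A, 0 to 2 in KDM6B, 5 to 8 and 3 to 7 in the differences of the KDM4 and KDM6 effects, 2 to 5 between full-length KDM4 proteins, 10 to 13 between full-length KDM6 proteins and 20 to 22 over all groups.

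Over the alternatives, 551 values of single named genes kept their direction and call, 97 lost the call and 0 changed sign. Genes that an alternative did not test, or gave no adjusted p, are in none of these counts. The 1 CPM filter, for example, kept only 13 of the 14 genes called in KDM4A. The rises and falls near the threshold were the ones lost most often: Hoxa11 in KDM4A, Hoxc9 in KDM4B and between full-length KDM4 proteins, and Hoxc12 between full-length KDM6 proteins were past it in none of the 4 fits without 1 library. Deviations of same-numbered libraries were weakly correlated over 28 pairs of groups (r between -0.003 and 0.172, median 0.105, over 0.1 in 15). The main fit did not take the numbers as pairs, and the source of these correlations was not tested. The replicate block gave 15, 8, 3 and 3 calls in KDM4A, KDM4B, KDM6A and KDM6B, against 14, 7, 3 and 1 without it. It gave 8 between full-length KDM4 proteins and 14 between full-length KDM6 proteins, against 6 and 13. Between 1357 and 3512 Hox reads a library limit the precision of the rare members.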

Other observations

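Of 13 tested genes next to the clusters, 6 rose and 4 fell in IDR-deleted KDM4A, against 24.6% and 25.9% of all genes. In KDM4B 2 rose and 4 fell, against 18.6% and 17.6%. The counts were 3 and 6 in KDM6A, against 8.3% and 8.65%, and 2 and 1 in KDM6B, against 9.89% and 10.7%. Snx10, a sorting nexin, fell in KDM4A (-0.64) and in KDM4B (-0.84), and Hibadh, an enzyme of valine breakdown, rose in KDM4A (0.93). Both are neighbours of HoxA.

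Markers of other cell types were counted in the KDM6A, KDM6B and KDM4B deletion contrasts, from lists that share some genes. Of all genes 8.3% rose and 8.65% fell in KDM6A, and 9.89% and 10.7% in KDM6B. In KDM4B the shares were 18.6% and 17.6%. In IDR-deleted KDM6A 2 of 10 primitive endoderm markers rose and 0 fell, and in KDM6B 0 rose and 2 fell. Of 8 trophectoderm markers 1 rose and 0 fell in KDM6A, and 0 rose and 1 fell in KDM6B. Of 11 mesendoderm markers 1 rose and 0 fell in each. Of 11 neural markers 3 rose and 1 fell in KDM6A, and 4 rose and 0 fell in KDM6B. Of 9 fibroblast markers 0 rose and 1 fell in KDM6A, and 1 rose and 0 fell in KDM6B. Of 9 pluripotency markers 3 rose and 2 fell in KDM6A, and 3 rose and 1 fell in KDM6B. In KDM4B 4 of 11 mesendoderm markers rose and 0 fell, 0 of 11 neural markers rose and 4 fell, 2 of 9 fibroblast markers rose and 0 fell, and 2 of 9 pluripotency markers rose and 6 fell.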
